A study of Mus musculus with 40 samples.

Results

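Cytosolic ribosomal protein mRNAs were followed in bone marrow-derived macrophages (BMDMs) through the response to lipopolysaccharide (LPS), the outer-membrane component of Gram-negative bacteria that macrophages sense through TLR4. Genes were chosen by name alone, as those called Rps or Rpl with a number, plus Rpsa and the stalk genes Rplp0, Rplp1 and Rplp2, leaving out pseudogenes and the S6 kinases. Of 86 such names, 82 genes had a mean value over the 40 libraries of at least 2.32, the log2 of 5 reads, out of 13103 genes tested and 27179 in the table. The members were 33 genes of the small and 49 of the large subunit. Just inside that limit was Rpl39l (mean 3.20) and just outside it was Rpl32l (mean 2.09). Rpl10l, Rpl3l and Rpl6l were the other names left out, with means of −2.32, 0.20 and 0.98.

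BMDMs came from 4 wild-type (WT) and 4 Cpeb4-/- male adult mice on a mixed C57BL/6J and 129 background. Cpeb4-/- mice lack CPEB4, an RNA-binding protein of 3′ untranslated regions, in all their cells. Marrow was grown for 7 days in L-cell-conditioned medium as the source of M-CSF, and cells were left untreated (0 hr) or given 10 ng/ml LPS for 1, 3, 6 or 9 hr. Each mouse gave a library at all 5 times, so that each of the 10 groups held 4 libraries. In each genotype, 2 mice belonged to batch 1 and 2 to batch 2, and no cage held both genotypes, so cage and genotype cannot be told apart. Values are regularized log (rlog) values, a log2 scale corrected for library size and drawn toward each gene's mean where counts are low. They are not corrected for transcript length, so levels are compared between groups and not between genes.

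A ribosome needs its proteins in near-equal numbers, and in most cells their mRNAs are among the most abundant. Most of these mRNAs start with a C followed by a stretch of pyrimidines, the 5′ terminal oligopyrimidine (TOP) motif, through which mTOR, acting on LARP1 and the 4E-BPs, controls their translation. Macrophages given LPS reprogramme both transcription and translation, while ribosomal protein mRNAs are often treated as a stable background, and Rplp0 is a usual normalizer for RT-qPCR.

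The targeted gene was examined as a check of the labels. At 6 hr, Cpeb4 was 10.1 to 10.7 in WT and 8.74 to 9.66 in Cpeb4-/- libraries. The groups did not overlap at 6 hr, whereas at the other times they did, and a value for the whole gene does not separate the exons that remain. All 40 libraries lay nearest to libraries of their own time, but 4 lay nearest to the other genotype at that time (WT mouse 69 at 1 hr, WT mouse 88 at 3 hr, and Cpeb4-/- mouse 2 at 1 hr and 9 hr). All 8 macrophage markers were expressed, with means of 9.66 to 18.2, while markers of T, B, mast and erythroid cells were under the limit in every case. Of the other lists, 2 of 5 granulocyte, 2 of 3 dendritic, 2 of 4 fibroblast and 2 of 2 megakaryocyte markers were above it. In bulk RNA, fewer cells of a type and less RNA per cell cannot be told apart.

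Starts of the members were examined for pyrimidine runs, because the TOP motif is what links these mRNAs. A run was defined as an unbroken stretch of C and T that opens with C, within 50 bases on either side of a RefSeq transcript start (GRCm38.p6, the mm10 build). Starts were found for 61 of the 82 members. Of their 72 starts, 57 (79.2%) held a run of 8 or more bases, against 28.0% of the 12817 starts of tested genes and 28.8% of all 32851 starts. On the other strand the share was 20.8% for members and 31.6% for all starts. The windows below show long runs that lie at the start, and the shortest runs, of members described further on (30 bases, sense strand, the longest run in capitals). Rpl27a (chr7:109519186-109519215, plus strand) had 20 bases, Rplp2 (chr7:141447637-141447666, plus strand) 9 and Rps6 (chr4:86857349-86857378, minus strand) 10, each opening within 4 bases of the annotated start. Rpl24 (chr16:55966227-55966256, plus strand), Rpl7l1 (chr17:46782670-46782699, minus strand) and Rplp0 (chr5:115559468-115559497, plus strand) held no more than 7 bases. Whether these mRNAs begin at the annotated starts was not tested, and runs further than 50 bases from them were not searched. A match describes these letters and is not a site or a cause.
Rpl27a: gtgagCTCCTCCCTTTTCCCTTTCTgccac
Rplp2: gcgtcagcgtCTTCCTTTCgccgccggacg
Rps6: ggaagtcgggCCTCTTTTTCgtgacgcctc
Rpl24: acctcaaacccaCTCCCCgccaatgctgta
Rpl7l1: gtcgaggcgggCCTCTCTaccccgcccggt
Rplp0: gaccgcctggttCTCCTataaaaggcacac

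In WT macrophages, ribosomal protein mRNAs were lower late in the response to LPS. At 9 hr, 49 of the 82 members had fallen and 4 had risen, while 36.6% of all tested genes fell and 37.0% rose (limma, adjusted p under 0.05). The median change of the members was −0.34 on the log2 scale at 9 hr, against −0.0043 over all tested genes. At 6 hr, 30 members had fallen and 7 had risen, against 40.2% and 39.7% of all genes, with a median of −0.19. At 6 hr the share of members that fell was thus close to that of all genes, and that of members that rose was lower. This 6 hr count rests on the scaling: with each library centred on its median gene, 5 fell and 9 rose, and the member median was −0.02 where that of all genes was 0.14. With quantile normalization 47 fell and 13 rose. At 9 hr the median stayed below 0 under both, with 33 and 51 members lower and 6 and 7 higher, although centring moved the median of all genes to 0.11. Shares of all genes called under these scalings are not given here.

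Earlier, the medians were above 0, but no larger share of members than of all genes passed the test as higher. At 1 hr, 14 members had risen and 1 had fallen, against 19.4% and 18.3% of all genes, and 80 of the 82 had a higher mean than at 0 hr (median 0.20). At 3 hr, 10 had risen and 1 had fallen, against 33.5% and 36.4%, with a median of 0.10. With the trend on transcript length removed, a fit added after the data had been seen, these medians were 0.07 and 0.04. Quantile normalization changed the 3 hr split to 20 higher and 23 lower. With the mouse as a block, 24 members rose and 1 fell at 1 hr. Shares of all genes called in these alternative fits are not given here, so their counts are not set against all genes. The 4 WT libraries did not overlap those at 0 hr in 7 members after 1 hr, in 6 after 3 hr, in 23 after 6 hr and in 38 after 9 hr, beside 31.4%, 59.2%, 74.6% and 67.6% of all tested genes at these times.

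The plot of member medians shows the same data library by library. In WT cells at 9 hr the member median lay between 0.22 and 0.41 below the WT mean at 0 hr in all 4 libraries, and per mouse 60, 64, 75 and 70 of the 82 members were lower than in that animal's untreated cells. The 1 hr group was spread far wider around that mean, with mouse 25 at −0.03, mouse 69 at −0.01, mouse 88 at 0.34 and mouse 87 at 0.49. Against each animal's own untreated cells, the 1 hr median change was 0.19, 0.07, 0.22 and 0.34 in mice 25, 69, 87 and 88. In these mice 6, 18, 3 and 2 members were lower. The 9 hr median was −0.29 among mice of batch 1 and −0.36 among those of batch 2, and the 1 hr medians were 0.26 and 0.14.

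**Figure D1:**
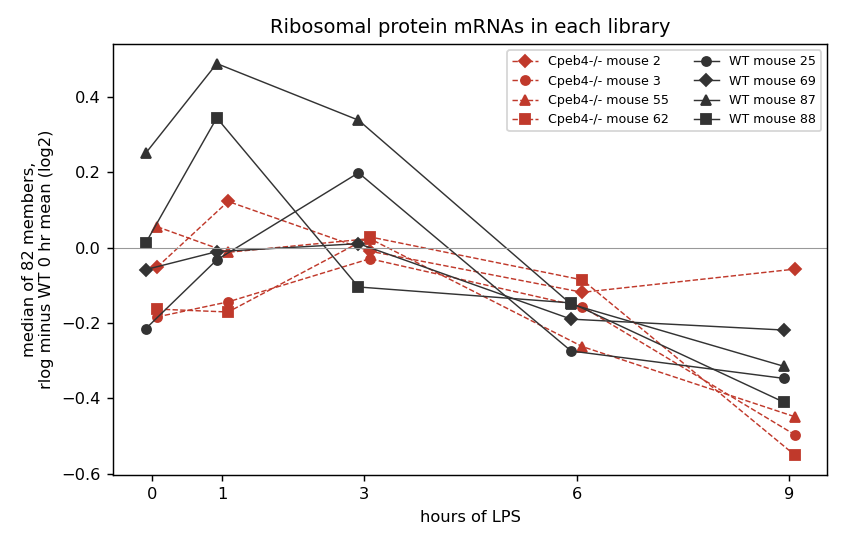
Median over the 82 members of rlog minus the WT mean at 0 hr (vertical axis, log2) against hours of LPS, with a line for each of 4 WT (solid) and 4 Cpeb4-/- (dashed) mice. All 4 WT lines end below 0 at 9 hr, and Cpeb4-/- mouse 2 stays near 0 at 9 hr where the other 3 Cpeb4-/- mice lie between −0.55 and −0.45.

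The fall was present in both subunits. At 9 hr the small-subunit median was −0.35, with 19 of 33 genes lower and 0 higher, and the large-subunit median was −0.32, with 30 of 49 lower and 4 higher. Over the time course 61 members passed the test at some time and 21 at none. At 6 hr by itself, 10473 of the 13103 tested genes passed, so no larger a share of members than of all genes responded. Of the members, 30 were lower at both 6 and 9 hr and 17 were lower at 9 hr alone, while 17 were higher at some time. Shares of all genes with these patterns are not given here, so the counts are not set against them. Rpl24, Rpl27 and Rpl7l1 were higher at all 4 times (with quantile normalization the 9 hr change of Rpl7l1 was −0.04), and Rpl10a was lower at all 4. Members with and without a long run within 50 bases of an annotated start were among those that fell. Of 51 members with a run of 8 or more, 30 fell and 2 rose at 9 hr (median −0.33). Of the 10 with shorter runs, 6 fell and 2 rose (median −0.36). Such a run need not lie at the start itself, so this split does not separate TOP mRNAs from others. Runs were counted inside the 50-base limits alone, and those of a few members, Rpsa among them, are cut at that edge.

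Of the small-subunit members, Rpsa, whose protein sits on the 40S surface and is also known as the laminin receptor, fell furthest. Rpsa was 7.22, 7.34, 7.45 and 7.62 in WT libraries at 0 hr and 6.82, 6.28, 6.66 and 6.75 at 9 hr. All 9 hr libraries lay below all untreated ones, a difference of −0.78 (SE 0.15, adjusted p = 2.3e-05). At 6 hr Rpsa was lower by a difference of −0.54 (adjusted p = 0.0015, a call lost with quantile normalization), and at 1 and 3 hr it did not pass the test (0.23 and 0.01).

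Rps19, the gene most often mutated in Diamond-Blackfan anaemia, was 10.8, 11.2, 11.0 and 11.5 untreated and 10.4, 10.4, 10.6 and 10.5 at 9 hr. The groups did not overlap (−0.61, SE 0.15, adjusted p = 0.00035). Rps3, at the mRNA entry channel, differed by −0.38 at 9 hr (adjusted p = 0.0050), again with no overlap. Rps6, the substrate of S6 kinase, went up early: it was 7.91, 8.08, 8.09 and 8.28 untreated and 8.28, 8.43, 8.20 and 8.55 at 1 hr. The groups overlapped, with a difference of 0.28 (SE 0.082, adjusted p = 0.0071), and at 9 hr the difference was −0.15 (adjusted p = 0.092).

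Rps27a and Rps27 had small changes near the threshold. Rps27a, made as a fusion with ubiquitin, rose at 1 hr by 0.32 (adjusted p = 0.016) and differed by −0.21 at 9 hr (adjusted p = 0.074). Rps27 differed by 0.30 at 1 hr (adjusted p = 0.052) and fell by 0.33 at 9 hr (adjusted p = 0.015), a call lost with median centring, with quantile normalization and without WT mouse 87 or 88. Only 1.35% of the 50-base windows of Rps27 occur nowhere else in the annotated transcripts, so its value is uncertain. With the mouse as a block, Rps27 also passed at 1 hr (adjusted p = 0.044), and Rps27a (adjusted p = 0.032) and Rps6 (adjusted p = 0.034) passed as lower at 9 hr.

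Among large-subunit members the steepest fall was that of Rpl27a. It was 9.51, 9.72, 9.63 and 9.93 in WT cells at 0 hr, 9.07, 9.05, 9.08 and 9.20 at 6 hr, and 8.94, 8.70, 9.04 and 9.08 at 9 hr. Neither late group overlapped the untreated one, with differences of −0.60 at 6 hr (SE 0.12, adjusted p = 2.4e-05) and −0.76 at 9 hr (adjusted p = 5.6e-07). At 1 hr the difference was 0.22, which passed the test with the mouse as a block alone (adjusted p = 0.049). Rpl13a, known in monocytes for its release from the ribosome to silence inflammatory transcripts as part of the GAIT complex, fell by 0.55 at 9 hr (adjusted p = 0.00097). Rpl22, an RNA-binding protein dispensable for bulk translation, fell by 0.52 (adjusted p = 4.5e-05).

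Rpl5 and Rpl11 form a particle with 5S rRNA that binds MDM2 when ribosome assembly is disturbed, and neither passed the test as lower at any time. Rpl5 was 5.60, 5.41, 5.58 and 5.41 at 0 hr and 5.88, 5.60, 5.65 and 5.96 at 3 hr. These groups overlapped at their edge, with a difference of 0.27 (SE 0.090, adjusted p = 0.0074). Rpl5 also rose at 1 and 6 hr (0.24 and 0.23). Only 6.16% of its windows occur nowhere else, and its exons overlap Fam69a and Snord21, so its values are uncertain. The change of Rpl11 passed the test at no time, with −0.11 at 9 hr (adjusted p = 0.27).

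The stalk proteins recruit elongation factors to the 60S subunit, and their 3 mRNAs all fell at 9 hr. Rplp0, which the study used among its RT-qPCR controls, was 13.8, 14.0, 13.9 and 14.3 in WT cells at 0 hr and 13.5, 13.5, 13.7 and 13.6 at 9 hr. No 9 hr library reached the lowest untreated one, a difference of −0.42 (SE 0.14, adjusted p = 0.0060). Rplp1 differed by −0.47 (adjusted p = 0.0062) and Rplp2 by −0.28 (adjusted p = 0.037). The latter call is lost without the filter on low values, with median centring, in a fit of the WT libraries alone and without WT mouse 87 or 88. With the mouse as a block, Rplp0 also rose at 1 hr by 0.22 (adjusted p = 0.040). For the other common controls, Tbp differed by 0.07 at 9 hr (adjusted p = 0.19) and Gapdh, a glycolytic enzyme, rose by 0.78 (adjusted p = 3.3e-08).

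Some large-subunit members passed the test as higher, as did 2, 2, 1 and 0 small-subunit members at 1, 3, 6 and 9 hr. Of those described next, Rpl24, Rpl10 and Rpl27 were still higher at 9 hr, when most members were lower. Rpl24, a 60S surface protein, was 4.45, 4.90, 4.87 and 4.87 in WT cells at 0 hr, 5.68, 5.59, 5.73 and 5.60 at 1 hr, and 6.14, 5.61, 5.71 and 6.16 at 3 hr. At 6 hr it was 5.82, 5.88, 6.02 and 5.67 and at 9 hr 5.55, 5.57, 5.88 and 5.64. Every stimulated library was above every untreated one, and the differences were 0.88, 1.13, 1.08 and 0.89 in time order (SE 0.12, adjusted p from 1.4e-07 at 1 hr to 1.5e-10 at 3 hr). Of the windows of Rpl24, 18.3% occur nowhere else, and its exons overlap those of Gm28037 on the same strand, so reads of these genes may not be told apart.

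Rpl10, which completes the 60S subunit late in its maturation, was 8.09, 8.18, 8.13 and 8.10 at 0 hr and 8.59, 8.61, 8.58 and 8.51 at 6 hr. These groups lay well apart (0.45, SE 0.049, adjusted p = 2.3e-10), and the difference was 0.21 at 9 hr. Rpl27 rose by 0.46 at 3 hr (adjusted p = 0.00093) and by 0.35 at 9 hr (adjusted p = 0.0082), with overlap at both times, and the latter call is lost without WT mouse 69 (0.29). Rpl9 rose at 1 hr by 0.45 (SE 0.12, adjusted p = 0.0028), from 6.64 to 6.88 untreated to 6.98 to 7.49, and differed by −0.10 at 9 hr. Rpl10 and Rpl9 have 7.87% and 6.68% of windows found nowhere else, which leaves their values uncertain.

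Rpl10a, a core 60S protein, was the only member called lower at 1 hr and at 3 hr. It was 7.75, 7.95, 8.12 and 7.95 at 0 hr, 7.53, 7.59, 7.55 and 7.59 at 1 hr and 7.47, 7.24, 7.42 and 7.34 at 9 hr. Both stimulated groups lay under the untreated one, with differences of −0.38 (adjusted p = 0.00016) and −0.58 (SE 0.079, adjusted p = 4.5e-08). Of its windows, 11.9% occur nowhere else.

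Paralogs of ribosomal proteins, which can take the place of the usual subunit or act outside the ribosome, were not uniform in their changes. Rpl7l1, a ribosome-assembly relative of Rpl7, was 11.4, 11.5, 11.4 and 11.6 in WT cells at 0 hr and 11.8, 11.8, 11.7 and 11.9 at 6 hr. The groups did not overlap (0.31, SE 0.054, adjusted p = 3.1e-06), and 90.8% of its windows occur nowhere else. Rps27l, a p53 target, fell at 9 hr by 0.46 (adjusted p = 0.010), a call lost with median centring and without WT mouse 87 or 88. Rpl22l1, Rps4l and Rpl39l did not pass the test at 9 hr, with differences of −0.10, 0.13 and 0.39, the latter with an SE of 0.58.

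**Figure D2:**
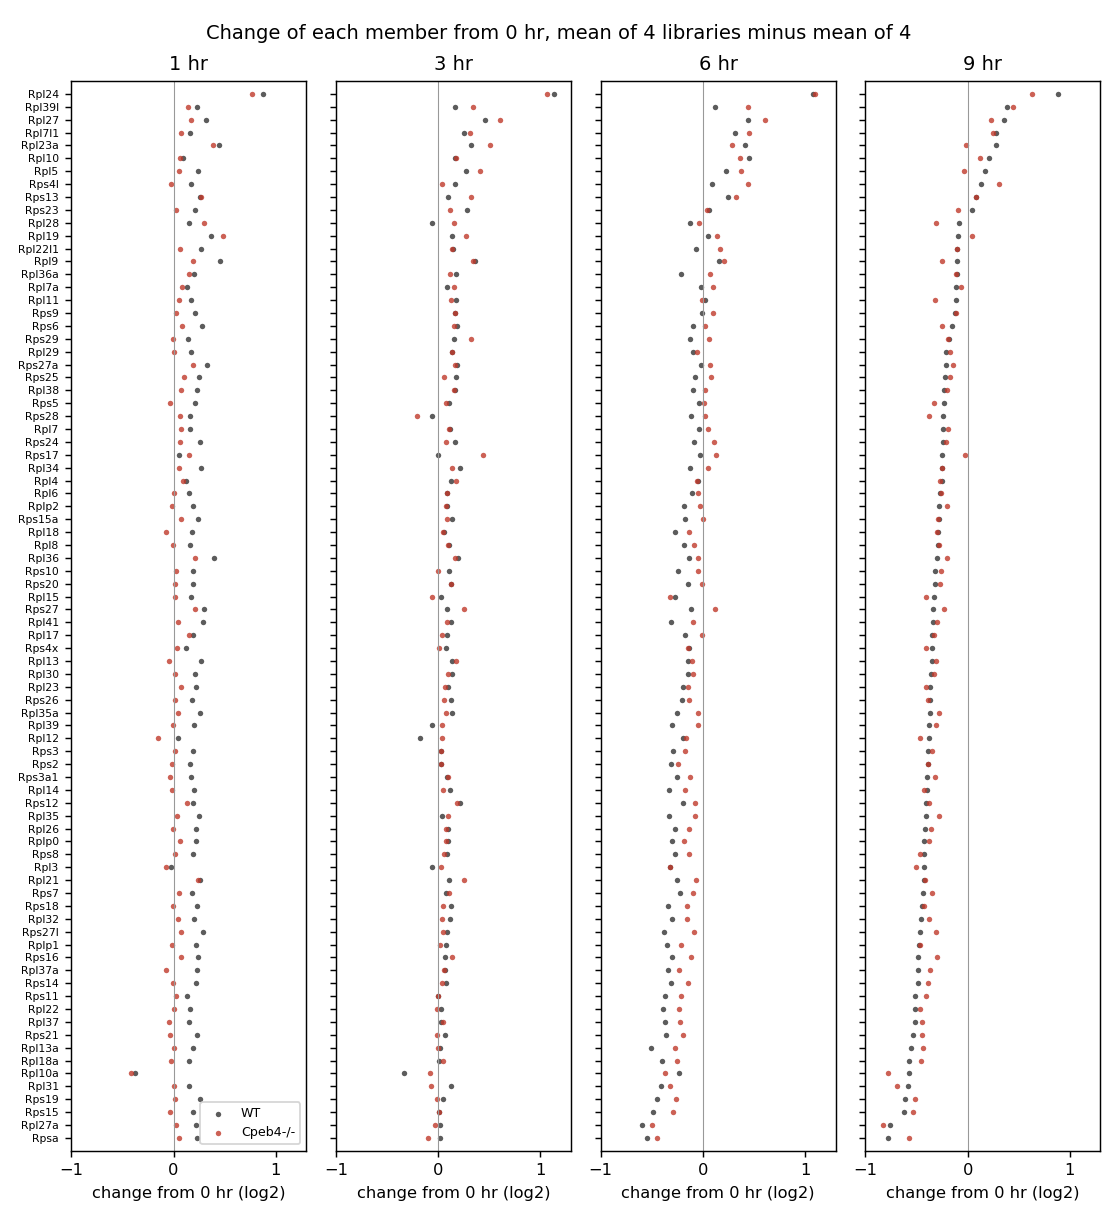
Mean change from 0 hr (horizontal axis, log2, 4 libraries minus 4) of each of the 82 members (vertical axis, ordered by the WT change at 9 hr) at 1, 3, 6 and 9 hr, in WT (grey) and Cpeb4-/- (red) BMDMs. The cloud sits right of 0 at 1 hr in WT and left of 0 at 9 hr in both genotypes, where the WT values run from −0.78 (Rpsa) to 0.89 (Rpl24).

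Copies of these genes elsewhere in the genome limit how far reads can be assigned, so the members were split by how much of their sequence is their own. In 36 members at least 50% of the 50-base windows occur nowhere else, and of these 25 fell and 1 rose at 9 hr (median −0.38). In the remaining 46, 24 fell and 3 rose (median −0.29). The exons of 38 members overlap another annotated gene, 19 of them one on the other strand.

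Other mRNAs of the translation machinery were set beside the members. Of 15 translation factors and related genes that carry TOP motifs, 11 fell and 1 rose in WT cells at 9 hr (median −0.25). Eef2, which moves the ribosome along the mRNA, differed by −0.33 (adjusted p = 3.2e-06), and Npm1, a nucleolar assembly factor, by −0.46 (adjusted p = 1.7e-08). Pabpc1, the poly(A)-binding protein, rose by 0.16 (adjusted p = 0.033). Other ribosomal proteins whose names the rule does not match were examined, and they gave differences of −0.32 for Rack1 (adjusted p = 0.0043), −0.09 for Rpl36al (adjusted p = 0.55) and −0.13 for Fau (adjusted p = 0.30).

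The regulators of TOP mRNAs were taken from the mTOR and LARP1 pathway. Of 14 genes, 7 rose and 1 fell at 9 hr (median 0.16), beside the 37.0% and 36.6% of all genes given above. Larp1, which binds the TOP motif, rose by 1.09 (adjusted p = 2.3e-24), and Mtor by 0.65 (adjusted p = 4.6e-08). Deptor, an inhibitor of mTOR, was the 1 of these that fell by the test, and it fell by 2.95 (adjusted p = 5.8e-12), while Akt1s1, also an inhibitor of mTOR complex 1, rose by 0.30 (adjusted p = 0.00012). Of 77 mitochondrial ribosomal protein genes, which are nuclear genes without a shared TOP control, 20 rose and 19 fell (median −0.01). Of 34 ribosomal protein pseudogenes listed, 8 were tested, of which 1 fell and 0 rose (median −0.23).

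Comparison of Cpeb4-/- with WT macrophages asked whether loss of CPEB4 changes these mRNAs at any stage. At 0 hr, 0 of the 82 members passed the test (limma, adjusted p under 0.05), against 1.05% of all tested genes, and 3 members had an unadjusted p under 0.05, as had 17.3% of all genes. At 1 hr, 0 members passed, against 1.84%, with 27 members at an unadjusted p under 0.05, all of them lower in Cpeb4-/- cells, where 35.3% of all genes had such a p. At 3 hr, 1 member passed, against 3.60%, with 6 at an unadjusted p under 0.05 (23.4% of all genes). At 6 hr, when 16.3% of all genes differed, 0 members passed and 7 had an unadjusted p under 0.05 (30.1% of all genes). At 9 hr, 0 passed, against 7.72%, and 3 had an unadjusted p under 0.05 (26.7% of all genes).

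The single call was Rpl10a at 3 hr. It was 7.62, 7.43, 7.68 and 7.72 in WT and 8.13, 7.99, 7.90 and 7.97 in Cpeb4-/- libraries. All Cpeb4-/- libraries were above all WT libraries, a difference of 0.39 (SE 0.083, adjusted p = 0.037). It was 0.54 in batch 1 and 0.24 in batch 2. The call is lost when any of WT mouse 25 or the 4 Cpeb4-/- mice is left out, where the difference ranges from 0.33 to 0.42 over all 8 such fits. It is also lost without the filter on low values, with quantile normalization and with batch as a covariate.

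In time order, median differences between genotypes were −0.08 (0 hr), −0.25 (1 hr), −0.11 (3 hr), 0.03 (6 hr) and −0.06 (9 hr). The 1 hr value had 73 of 82 members lower in Cpeb4-/- cells and held within batch (−0.31 and −0.19). Other fits changed that count: with all 40 libraries in 1 fit 26 members passed, beside 31.9% of all genes, and with the mouse as a block 33 passed, beside 33% of all genes. Of the libraries at 1 hr nearest to the other genotype, leaving out WT mouse 69 gave 7 members, all lower, beside 18% of all genes, and leaving out Cpeb4-/- mouse 2 gave 0, beside 4.72%. At 3 hr 15 passed without WT mouse 88, 13 of them lower, beside 19.7%. At 9 hr 31 passed without Cpeb4-/- mouse 2, all lower, beside 34.8%.

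Shifts of single libraries within a group moved with transcript length. Members are short, with a median of 768 nt against 2885.5 nt for other tested genes, and 59 of 82 were at most 1000 nt against 6.00% of other genes. After subtracting group means, the member median of each library followed that of 713 other genes of up to 1000 nt with r = 0.990 (rho 0.985), and ran against that of 3535 genes over 4000 nt with r = −0.966. These correlations describe 40 libraries of 8 mice that share a normalization. They rest on deviations within groups, and how they arise was not tested.

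**Figure D3:**
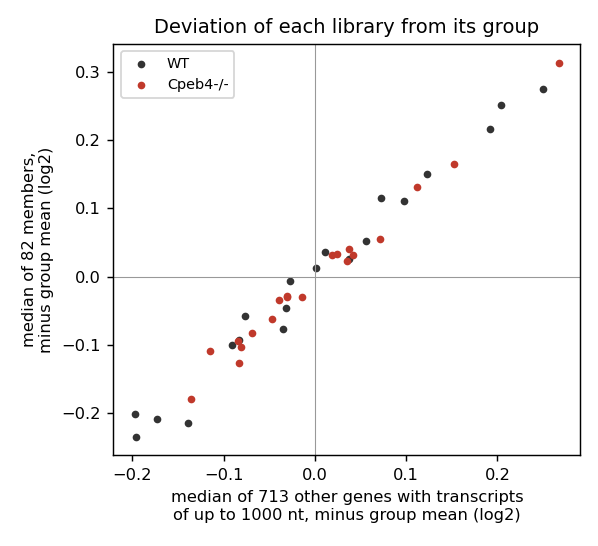
Deviation of each of the 40 libraries from its group mean (log2), for the median of the 82 members (vertical) against the median of 713 other genes with transcripts of up to 1000 nt (horizontal), WT grey and Cpeb4-/- red. The points follow the diagonal from −0.23 to 0.31 on the vertical axis.

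In the fit with the trend on transcript length removed from each library, values changed in both comparisons. The genotype median at 1 hr went from −0.25 to −0.03, with 0 members passing. In the WT time course 60 members passed at 9 hr, 56 of them lower, including all 53 that passed as deposited, and at 6 hr 39 fell and 8 rose. At 1 hr only 8 rose and 1 fell. Shares of all genes called in this fit of the time course are not given here, so these counts are not set against them. At 6 hr between genotypes, 5 members passed, all higher in Cpeb4-/- cells, beside 20.9% of all genes in either direction. Among genes of like length, 125 other genes of up to 600 nt had a median of −0.16 in WT cells at 9 hr, where the 24 members of that length had −0.36, and 1228 other genes of 1000 to 1500 nt had −0.09, where 15 members had −0.40. Values for the other lengths, 600 to 1000 nt among them, are not given here.

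The late fall was also present in Cpeb4-/- macrophages, whose median changes were 0.03 and 0.08 after 1 and 3 hr and −0.07 and −0.31 after 6 and 9 hr. The difference between genotypes in the change from 0 hr was tested directly as an interaction. In it 0 members passed at 1, 3, 6 or 9 hr in limma, against 0.00763%, 0.206%, 2.94% and 1.76% of all tested genes, with 0, 2, 0 and 0 members at an unadjusted p under 0.05, as had 1.57%, 5.03%, 15.1% and 12% of all genes. The median interaction was −0.17, −0.02, 0.13 and 0.02, with a median SE of 0.17 for a member in this fit without the mouse as a block. By mouse, the Cpeb4-/- member median at 9 hr against that animal's own 0 hr was −0.32, −0.41 and −0.46 in mice 3, 62 and 55 and −0.02 in mouse 2.

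**Figure D4:**
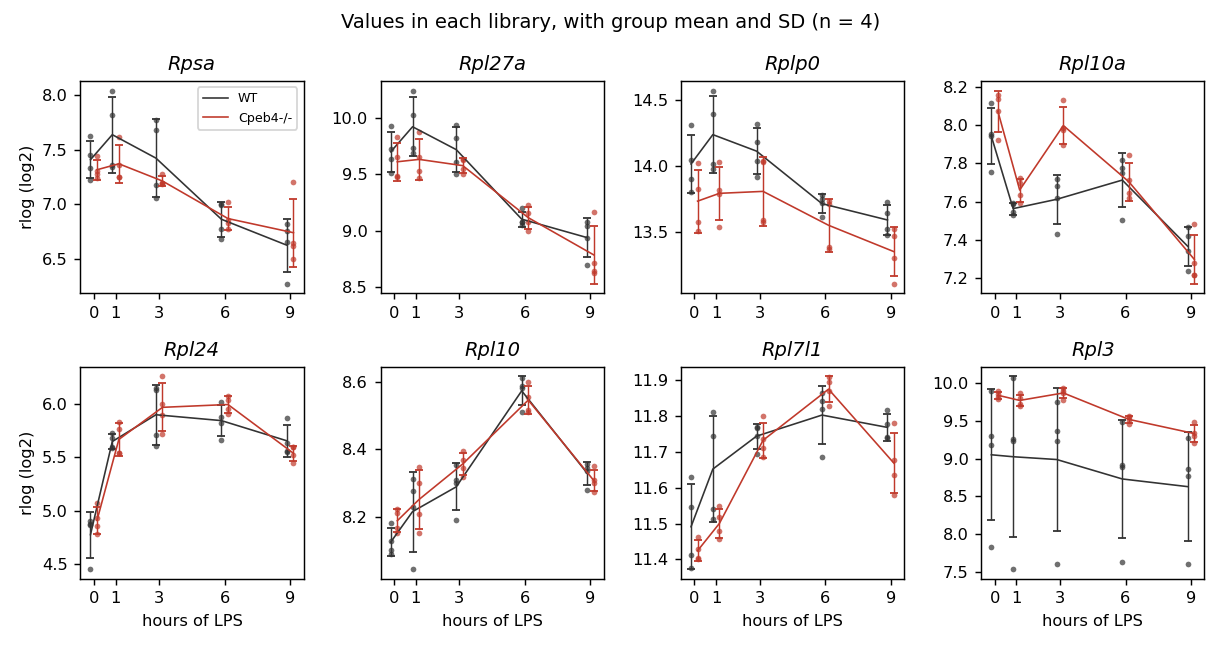
Values of 8 members in each library (points) with group mean and SD (n = 4) against hours of LPS, WT grey and Cpeb4-/- red, each panel with its own rlog axis (log2). Rpsa, Rpl27a and Rplp0 end lower at 9 hr, Rpl24 stays higher from 1 hr on, and Rpl3 has a WT library at each time that lies far under the other 3.

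Some members differed widely between mice of a genotype. The range over the 4 mice of a genotype, each averaged over the 5 times, had a median of 0.28 in WT and 0.19 in Cpeb4-/- mice. Rpl3, the peptidyl-transferase centre protein, was chosen here after its values were seen. Its mean over the 5 times was 9.10, 9.11, 7.64 and 9.70 in WT mice 25, 69, 87 and 88 and lay between 9.63 and 9.71 in all 4 Cpeb4-/- mice. Mouse 87 was the low one at every time. Of the windows of Rpl3, 14.4% occur nowhere else. Rpl39l, a paralog of Rpl39 known from testis, was 4.44 and 4.27 in Cpeb4-/- mice 2 and 55, both of batch 2, 2.19 and 2.64 in mice 3 and 62 of batch 1, and 2.53 to 3.37 in WT mice.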

How the data were processed

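Poly(A) RNA of the 40 libraries was sequenced as 50-base reads. Per the labels and methods, the authors aligned reads with STAR 2.3.0e to mm10, counted them per gene with featureCounts and deposited rlog values from DESeq2, on a log2 scale. Settings for strand and multiply mapped reads are not given in the sources used here, and rlog keeps no depth, so counts and counting intervals were not used. No 2 libraries were identical. Members and lists were chosen with earlier results of these data known.

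The 13103 genes whose mean rlog reached 2.32 were tested with limma 3.58.1 (lmFit, eBayes with trend, R 4.3.3) and Benjamini-Hochberg adjustment over all of them. An adjusted p under 0.05 was a call. Genotypes were compared within a time on its 8 libraries, and the WT time course and interaction in 1 fit of 10 groups over 40 libraries. The fit was tested on simulated data. Changes are differences of mean rlog, which understate those of low genes. Since each mouse gave all 5 times, libraries are paired by mouse. After removing group means, the median correlation over all genes was 0.29 for libraries of the same mouse, above 0.1 in 68 of 80 pairs. It was −0.09 for different mice. Over the members these medians were 0.67 and −0.35, a stronger tie to the mouse that the main fit of the time course does not use. Fits with the mouse as a block were alternatives, beside filters, scaling, batch, left-out mice and, added after seeing the data, removal of the length trend (loess on log2 transcript length). Transcripts were those of GENCODE vM21 and starts those of RefSeq (GRCm38.p6). Genes were named by role, or as the 2 strongest calls each way per comparison. Rpl3 was named after its values were seen. The study's own comparisons were not used.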

Additional observations from a re-analysis of the deposited data

Results flagged for a closer look

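In 13 of 300 groups of 4 libraries, 1 library stood apart from the other 3 by more than Dixon's critical value for 4 values, where chance gives about 1 in 20. Cpeb4-/- mouse 2 at 9 hr held 4 of them, with Rpl27 at 6.62, Rpl27a at 9.16 and Rps27a at 7.90 above the other 3 libraries and Gapdh at 10.01 below them. Its Tbp at 3 hr (9.07) and Rps4l at 6 hr (6.67) were the highest of their groups. In WT cells, Rpl24 was lowest in mouse 25 at 0 hr (4.45), and Rpl27 was highest in mouse 87 at 0 hr (6.396) and 6 hr (6.86). WT mouse 88 was highest at 9 hr for Cpeb4 (9.41) and Gapdh (10.3). In Cpeb4-/- cells at 3 hr, Rps19 was lowest in mouse 3 (10.9) and Rpsa highest in mouse 55 (7.28). Causes were not tested.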

How the results depend on the processing

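Depth cannot be read from rlog values, and the spread between mice sets the precision, with a median SE of 0.12 for a member's change in WT cells. A median of the members counted as stayed if it shifted by less than the mean SD of library medians in the groups compared. A count stayed if it equalled the main one, 0 against 0 included, or lay within a set ratio of it. These limits are wide: the WT 1 hr median stayed when it went from 0.20 to 0.07 with the length trend removed. Of the results on the members as a whole, 280 values under settings other than left-out mice stayed within these limits and 24 moved. With a mouse left out, 193 stayed and 15 moved. Beyond those limits 0 reversed, but medians within them were not checked for sign. Some small medians did change sign, such as the genotype median at 6 hr in batch 2 (−0.0029). The WT median at 3 hr reached −0.010 with a mouse left out. In the genotype comparison, calls at 3 hr went from 1 to 0 without the low-value filter and with quantile normalization. They also went to 0 with batch as a covariate and without the eBayes trend, and to 2 with the length trend removed. Shares of all genes in these fits were 0.804%, 3.27%, 1.44%, 1.72% and 7.68%. Calls at 6 hr went from 0 to 2 (quantile), 1 (no trend) and 5 (length), beside 15.3%, 11% and 20.9% of all genes. Those at 9 hr went from 0 to 1 with quantile normalization, batch, all 40 libraries in 1 fit, and the mouse block. The shares of all genes there were 7.05%, 13.6%, 17.4% and 18.1%. At 1 hr, 26 passed with all 40 libraries in 1 fit and 33 with the mouse as a random replicate block. All genes passed at shares of 31.9% and 33% there. The 1 hr median became −0.033 with the length trend removed.

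In the WT time course, median centring gave 22 calls at 3 hr and 14 at 6 hr (median −0.023). Quantile normalization gave 43 at 3 hr, 60 at 6 hr (median −0.42) and a median of −0.49 at 9 hr. At 1 hr, 9 passed with the length trend removed and 25 with the replicate block as a fixed effect, which gave 11, 44 and 64 calls at 3, 6 and 9 hr and 0 in the interaction. Shares of all genes called in these fits of the time course are not given here, so the counts are not set against them. The block also called Rps6 (−0.15) and Rps27a (−0.21) at 9 hr and, at 1 hr, Rpl22l1, Rps27, Rplp0 and Rpl27a, and changed no other call of a named member in the WT time course. Changes at 9 hr turned direction for Rpl22l1 with median centring (0.0098) and, with quantile normalization, for Rps6 (0.086), Rps27a (0.071), Rpl11 (0.20) and Rpl7l1 (−0.044). The cause was not tested.

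Leaving out 1 mouse at a time gave 0 calls at 0 hr between genotypes, beside 0.282% to 1.15% of all genes. At 1 hr it gave 0 to 7, with 7 without WT 69 (18% of all genes). At 3 hr it gave 0 to 15, with 15 without WT 88 (19.7%). At 6 hr it gave 0 to 4, with 2, 3 and 4 without WT 88, WT 87 and Cpeb4-/- 55 (12%, 13.8% and 17.7%). At 9 hr it gave 0 to 31, with 31 without Cpeb4-/- 2 (34.8%). In WT cells the ranges were 9 to 16 at 1 hr (9 without WT 88) and 7 to 12 at 3 hr (7 without WT 25). They were 21 to 41 at 6 hr (21 without WT 87, 23 without WT 88) and 42 to 57 at 9 hr. Shares of all genes called in these WT fits are not given here, so the counts are not set against them.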
